A study of Mus musculus with 4 samples.

Results

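Cyp3a11, Cyp3a13, Cyp3a16, Cyp3a25, Cyp3a41a and Cyp3a44 are mouse genes of the cytochrome P450 3A family, and their RNA was measured in livers of mice without Ilrun and of wild-type (WT) mice. Probes were taken for these genes where the gene name on the array, or the gene of the transcript given as the probe's systematic name, was 1 of the 6 symbols. Further transcripts in a probe's annotation were not used for this choice. This gave 7 probes for 5 of the 31709 genes on the array, since no probe carried the name Cyp3a41a. Each of 4 two-colour arrays compared the liver RNA of 1 IlrunKO male and 1 WT male. The IlrunKO mice carried a global loss of Ilrun. Both groups were male C57BL/6 mice on chow, and livers were taken after 4 h without food. Ages are not in the labels, and the labels call the samples biological replicates (4 per genotype) without saying how the mice were bred or whether any were pooled. Each channel is taken as 1 mouse. IlrunKO RNA carried the dye Cy5 on arrays 1 and 2 and Cy3 on arrays 3 and 4, and all arrays shared 1 slide and 1 scan. KO1 to KO4 and WT1 to WT4 are the mice on arrays 1 to 4.

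CYP3A enzymes are haem proteins of the endoplasmic reticulum that oxidise drugs, steroids and bile acids, with electrons passed on by the reductase encoded by Por. Cyp3a11 is the main hepatic form of adult mice and is often set beside human CYP3A4. The nuclear receptors PXR (Nr1i2) and CAR (Nr1i3) raise Cyp3a transcription when they bind foreign compounds or steroids, HNF4A (Hnf4a) maintains it in hepatocytes, and Cyp3a RNA is known to fall in liver during inflammation. Cyp3a16 is best known from fetal and young liver, and Cyp3a41 and Cyp3a44 are known as forms that predominate in adult female liver.

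The probes are shown first because close relatives make up this family, and which transcripts a probe can bind decides what its value means. Except for those of Cyp3a13, the Cyp3a probes lay within 773 kb of chromosome 5, from 146151322 to 146924544 of mouse genome mm9 as given in the files. The Cyp3a13 probes lay 7.82 Mb away. The RefSeq annotation used here is of another build, so no probe was placed in an exon or intron. The brighter Cyp3a11 probe (chr5:146666237-146666296, minus strand), the Cyp3a16 probe (chr5:146197274-146197333, minus strand), the Cyp3a25 probe (chr5:146788879-146788938, minus strand) and the brighter Cyp3a13 probe (chr5:138335412-138335471, minus strand) were each annotated to transcripts of 1 gene. Their first 30 of 60 bases read, 5′ to 3′:
Cyp3a11: gtgagctcttgtaacaactctagttgtaga
Cyp3a16: gatgcagtcataactggagcgtgattttcc
Cyp3a25: cactaattccagttagttacatccattctg
Cyp3a13: cctgtggaccagaaaccaattcatattgtg

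A dimmer Cyp3a11 probe (chr5:146672058-146673925, minus strand) was annotated to transcripts of Cyp3a11, Cyp3a41a, Cyp3a41b and Cyp3a44, so its signal cannot be assigned to 1 of these genes. It is called the shared Cyp3a11 probe below and is shown whole because it is the probe with most family members in its annotation:
shared Cyp3a11 probe: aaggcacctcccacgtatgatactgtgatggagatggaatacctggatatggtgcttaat

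Cyp3a41a was read through a probe that the files name Cyp3a41b and annotate to both Cyp3a41a and Cyp3a41b (chr5:146319794-146319853, minus strand). It was not among the 7 probes, and it stands here for the Cyp3a41 pair, which it cannot tell apart. The Cyp3a44 probe (chr5:146585717-146585776, minus strand) aligns closely with it. Over the 53 bases where the 2 probes overlap, 46 matched, and all 7 differences lay in these 30 bases, where capitals mark them:
Cyp3a41a and Cyp3a41b: cagtgtctgtAcaGgttaTcatCtaatTAA
Cyp3a44: cagtgtctgtGcaAgttaAcatAtaatACG

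With these 7 differences, the Cyp3a41 probe was well above background in 8 of 8 channels and the Cyp3a44 probe in 0 of 8. No other pair of Cyp3a probes shared more than 27 matching bases at its best alignment. The probes were compared with each other only, and how far transcripts of one Cyp3a gene bind the probe of another was not tested.

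In KO2, the IlrunKO mouse of array 2, most Cyp3a RNAs stood far below those of all other mice. The mean differences between the groups did not pass the test. Cyp3a11 was 13.0-fold lower in KO2 than in WT2 on the same array, Cyp3a16 13.4-fold and the Cyp3a41 pair 10.95-fold. In KO1, KO3 and KO4 the log2 ratios of the same probes to their WT partner lay between -0.45 and 0.56. Of the 4 member genes with signal, limma called 0 at an adjusted p under 0.05 (1 had an unadjusted p under 0.05), while it called 1.38% of all 19700 genes kept, 0.716% higher and 0.66% lower in IlrunKO. The 1 was Cyp3a25, which was lower. At an unadjusted p under 0.05, 20.5% of all genes passed, and 9.88% did so with a lower value in IlrunKO. Genes entered the test if 3 or more of the 4 channels of a genotype showed signal well above background, and the call is made on log2 ratios of IlrunKO over WT.

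On array 2, signal well above background was seen at 64.5% of the 39429 probes in KO2 and 63.1% in WT2, inside the range of 60.04% to 67.32% over the 8 channels. The SD of log2 ratios over genes was 0.31 on array 2 and 0.27 to 0.28 on the other arrays. The 20 hepatocyte markers were all kept, with a mean log2 level of 15.59 to 16.00 in IlrunKO livers and 15.75 to 16.04 in WT livers, and KO2 had the highest IlrunKO value. Of these markers, 19 had a mean ratio below 0 (median -0.13), and limma called 0 of them (9 had an unadjusted p under 0.05). Ilrun, the targeted gene, had log2 ratios of -4.12, -4.11, -4.04 and -4.56 on arrays 1 to 4, so it was 18.5-fold lower in IlrunKO livers on average at the brighter of its probes (limma adjusted p = 0.00329), and KO2 was inside the range of its group there. The dimmer Ilrun probe averaged -2.15 ± 0.34 (SD, n = 4), with signal well above background in 1 of 4 IlrunKO and 4 of 4 WT channels. Since 1 mouse decides most of the values below, the mean ratio of each Cyp3a probe tested is given with and without array 2.

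Cyp3a11 had log2 levels of 16.55, 13.32, 15.99 and 16.53 in KO1 to KO4, against 15.99, 17.02, 16.36 and 16.35 in WT1 to WT4. KO2 was 2.67 below the next lowest IlrunKO liver and 2.66 below the lowest WT liver, while the other IlrunKO livers overlapped the WT range. A level here is a log2 intensity after normalisation of both channels, and levels of different probes are not comparable. The log2 ratios on arrays 1 to 4 were 0.56, -3.70, -0.37 and 0.18, with a mean of -0.83 ± 1.95 (SD, n = 4). The 95% confidence interval ran from -2.63 to 0.97 and limma gave an adjusted p of 0.567. Without array 2 the mean of the other arrays was 0.12 ± 0.47 (SD, n = 3). In a bulk liver sample, fewer cells that make an RNA and less RNA per cell cannot be told apart.

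The fall is also visible in the scanner signal before any normalisation. The raw Cyp3a11 signal was 12003 in KO2, against 88312 in WT2 on the same array. In KO1, KO3 and KO4 it was 94381, 52363 and 90713, against 34452, 141671 and 147110 in their WT partners, with Cy5 and Cy3 exchanged between arrays 1 and 2 and arrays 3 and 4. The local background was 28 in KO2 and 20.5 in WT2, so the KO2 signal stood well above it.

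The shared Cyp3a11 probe was also lowest in KO2. Its log2 levels were 14.57, 11.28, 14.26 and 15.05 in KO1 to KO4, against 14.29, 14.84, 14.73 and 14.73 in WT1 to WT4. KO2 again lay below all 7 other livers, whose levels overlapped between genotypes. The ratios were 0.28, -3.56, -0.48 and 0.32 on arrays 1 to 4 (mean -0.86 ± 1.83, SD, n = 4), with a limma adjusted p of 0.507 over 24404 probes. KO2 was 11.8-fold lower than WT2 on it, and without array 2 the mean was 0.04 ± 0.45 (SD, n = 3).

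Cyp3a16 had log2 levels of 14.24, 10.93, 14.11 and 14.41 in KO1 to KO4, against 13.91, 14.67, 14.44 and 14.18 in WT1 to WT4. Its KO2 level was 3.18 below the next lowest IlrunKO liver, and KO1, KO3 and KO4 were all inside the WT range. The ratios were 0.33, -3.74, -0.33 and 0.23, with a mean of -0.88 ± 1.93 (SD, n = 4), a 95% confidence interval from -2.60 to 0.85 and a limma adjusted p of 0.526. Without array 2 the mean was 0.08 ± 0.36 (SD, n = 3).

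The probe for Cyp3a41a and Cyp3a41b had log2 levels of 11.92, 8.52, 11.39 and 11.99 in KO1 to KO4, against 11.48, 11.97, 11.84 and 11.70 in WT1 to WT4. KO2 was the lowest of the 8 livers by 2.87, and the others overlapped. The ratios were 0.43, -3.45, -0.45 and 0.29 (mean -0.80 ± 1.81, SD, n = 4), with a limma adjusted p of 0.55 and a 95% confidence interval from -2.45 to 0.86. Without array 2 the mean was 0.09 ± 0.47 (SD, n = 3). Although Cyp3a41 forms are known from female liver, this probe was well above background in all 4 males of each genotype.

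Cyp3a44 was not well above background in any of the 8 channels, with log2 levels of 6.16 to 6.21 in IlrunKO livers and 6.17 to 6.29 in WT livers. It was not tested and no fold is given for it.

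**Figure D1:**
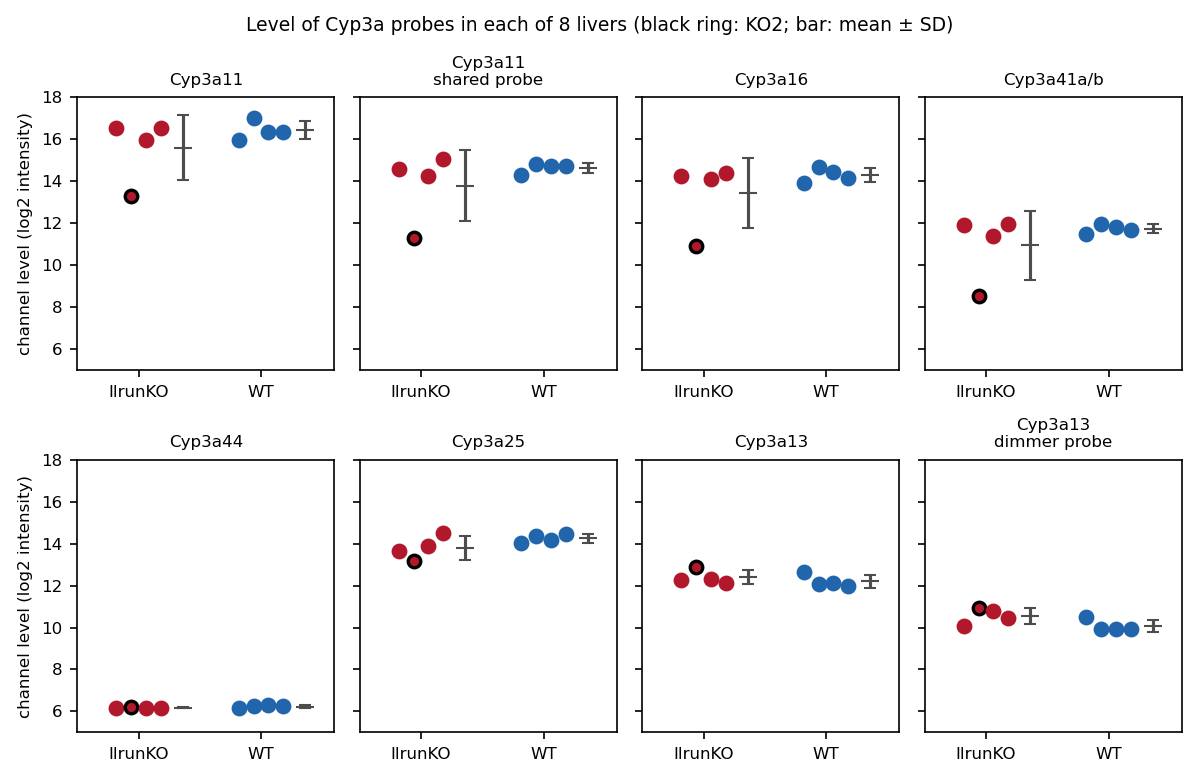
Log2 level of Cyp3a probes in each liver, with IlrunKO mice on the left and WT mice on the right of each panel, 4 points per genotype in the order of arrays 1 to 4, the KO2 point ringed in black and a bar for mean ± SD (n = 4). KO2 lies below the other 7 livers for Cyp3a11 (13.32), the shared Cyp3a11 probe (11.28), Cyp3a16 (10.93), the Cyp3a41 pair (8.52) and Cyp3a25 (13.16), and above them for both Cyp3a13 probes. Cyp3a44 is at background throughout.

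Cyp3a25, another hepatic form of the cluster, differed less in KO2 and was below WT on more arrays. Its log2 levels were 13.65, 13.16, 13.86 and 14.51 in KO1 to KO4, against 14.01, 14.38, 14.15 and 14.44 in WT1 to WT4. KO1, KO2 and KO3 were below all WT livers, while KO4 was above them. The ratios were -0.36, -1.22, -0.29 and 0.08, with a mean of -0.45 ± 0.55 (SD, n = 4). The 95% confidence interval of the limma fit ran from -0.86 to -0.04, unadjusted for the number of genes. The limma adjusted p was 0.211. KO2 was 2.34-fold lower than WT2, and without array 2 the mean was -0.19 ± 0.23 (SD, n = 3).

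An unnamed probe 547 bases from the Cyp3a25 probe (chr5:146788272-146788331) had nearly the same ratios, at -0.51, -1.36, -0.24 and 0.10 on arrays 1 to 4. Its mean was -0.50 ± 0.63 (SD, n = 4), and -0.21 ± 0.31 (SD, n = 3) without array 2. It also missed the threshold, with a limma adjusted p of 0.171 over all probes. The files give this probe no gene, so it is described by its position alone.

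Cyp3a13, the form that lies outside the cluster and is best known from intestine, did not share the low value of KO2. Its brighter probe had log2 levels of 12.28, 12.90, 12.32 and 12.13 in KO1 to KO4, against 12.65, 12.05, 12.11 and 11.98 in WT1 to WT4. KO2 was the highest of the 8 livers, 1.79-fold above WT2, and the groups overlapped. The ratios were -0.36, 0.84, 0.21 and 0.14, with a mean of 0.21 ± 0.50 (SD, n = 4), a 95% confidence interval from -0.31 to 0.73 and a limma adjusted p of 0.623. Without array 2 the mean was -0.0038 ± 0.31 (SD, n = 3).

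The dimmer Cyp3a13 probe (chr5:138334265-138334324, minus strand) had higher ratios, at -0.41, 1.01, 0.86 and 0.53 on arrays 1 to 4 (mean 0.50 ± 0.64, SD, n = 4). Its log2 levels were 10.09, 10.95, 10.79 and 10.46 in KO1 to KO4, against 10.50, 9.94, 9.93 and 9.93 in WT1 to WT4. All IlrunKO livers were above WT2, WT3 and WT4, but WT1 lay among the IlrunKO values. Limma gave it an adjusted p of 0.322 over all probes, and without array 2 its mean was 0.33 ± 0.66 (SD, n = 3).

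The other Cyp3a genes with signal on the array were also lowest in KO2. Cyp3a59 had log2 ratios of -0.11, -2.96, -0.32 and 0.38 on arrays 1 to 4 at its brighter probe (chr5:146920638-146920697, plus strand), which put KO2 7.80-fold below WT2 (limma adjusted p = 0.445). Without array 2 the mean was -0.02 ± 0.36 (SD, n = 3). Its dimmer probe (chr5:146924485-146924544, plus strand) was below 0 on all 4 arrays, at -0.76, -1.66, -0.83 and -0.30, with a mean of -0.89 ± 0.57 (SD, n = 4). It had the smallest p of the Cyp3a probes and missed the threshold (limma adjusted p = 0.0857 over all probes). Without array 2 the mean was -0.63 ± 0.29 (SD, n = 3). The log2 levels at that dimmer probe were 8.60, 8.02, 8.94 and 9.37 in KO1 to KO4, against 9.36, 9.68, 9.77 and 9.67 in WT1 to WT4. KO1, KO2 and KO3 were below all WT livers, and KO4 was just above WT1. The files annotate both probes to Cyp3a59, and their ratios differ on every array, most on array 2 (-2.96 and -1.66) and in sign on array 4 (0.38 and -0.30).

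Cyp3a57 was like Cyp3a25, with ratios of -0.21, -1.18, -0.50 and -0.09 (mean -0.49 ± 0.49, SD, n = 4, limma adjusted p = 0.214). Without array 2 its mean was -0.27 ± 0.21 (SD, n = 3). A probe named LOC673748, for a predicted transcript inside the cluster (chr5:146397191-146397250), had ratios of 0.23, -3.06, -0.04 and 0.13 (mean -0.68 ± 1.59, SD, n = 4, and 0.11 ± 0.14, SD, n = 3, without array 2). An unnamed probe 7605 bases from the Cyp3a44 probe did not share the fall on array 2, at 0.12, 0.14, -0.31 and 0.19 (mean 0.03 ± 0.23, SD, n = 4, and -0.0028 ± 0.27, SD, n = 3, without array 2). Low values in KO2 were thus seen at most but not all probes inside the cluster.

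Over all 11 Cyp3a probes, 10 were kept and 0 were called by limma over all probes (3 had an unadjusted p under 0.05), against 1.52% of 24404 probes. The 8 kept probes of genes other than Cyp3a13 all had their lowest IlrunKO level and their lowest ratio in KO2. Only 5 of 19700 genes had a log2 ratio of -3 or less on array 2, against 1 gene on each of arrays 1, 3 and 4. These were Ilrun, Cyp3a16, Cyp3a11, Cyp3a41b and LOC673748, and Cyp3a59 ranked 6 from the lowest. Cyp3a25 ranked 34, Cyp3a57 ranked 43 and Cyp3a13 ranked 19347. On array 1, by contrast, Cyp3a11 ranked 19206, close to the highest genes. Array 2 also had the most genes at the high end. There 9 genes had a log2 ratio of 3 or more, against 2, 4 and 2 on arrays 1, 3 and 4.

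**Figure D2:**
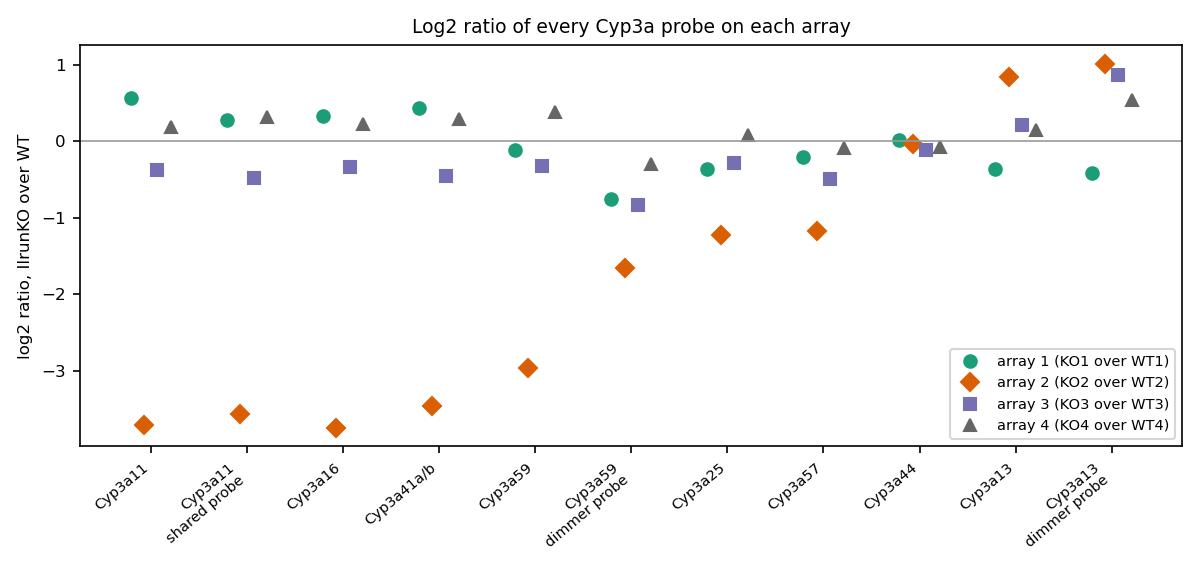
Log2 ratio of IlrunKO over WT for each of the 11 Cyp3a probes on arrays 1 to 4, 1 symbol per array. Array 2 lies between -3.74 and -2.96 for Cyp3a11, Cyp3a16, the Cyp3a41 pair and the brighter Cyp3a59 probe, between -1.66 and -1.18 for the dimmer Cyp3a59 probe, Cyp3a25 and Cyp3a57, and at 0.84 and 1.01 for Cyp3a13.

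**Figure D3:**
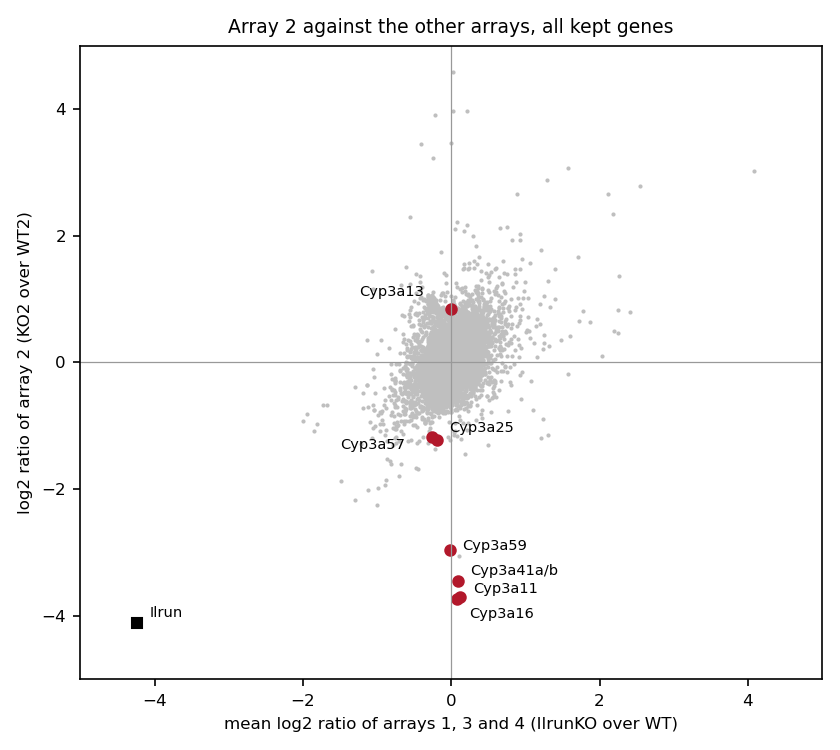
Log2 ratio on array 2 against the mean log2 ratio of arrays 1, 3 and 4 for all 19700 genes kept (grey), with Cyp3a genes in red and Ilrun as a black square. Cyp3a11, Cyp3a16, Cyp3a59 and the Cyp3a41 pair lie near 0 on the horizontal axis and at -2.96 or below on the vertical one, while Ilrun is low on both.

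The dye orientation did not separate the low array from the others. Arrays 1 and 2 had IlrunKO in Cy5, and Cyp3a11 stood at 0.56 on one and at -3.70 on the other. The dye term of the fit was called at 0 of 24373 probes (4289 had an unadjusted p under 0.05), and 0 of the Cyp3a probes had an unadjusted p under 0.05 for it. For Cyp3a11 the dye term was -0.74, with a standard error of 0.69 for the fitted log2 ratio. The gap between arrays 1 and 2 itself enters the spread against which the dye term is tested. At Cyp3a probes with a large gap of this kind, the test therefore cannot decide whether dye had an effect. The dye term also cannot be told apart from a difference between the mice of each dye orientation.

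The low values of array 2 were similar in 5 other treatments of the signal, chosen after array 2 had been seen to stand apart. Across no background correction, normexp with offset 0, Agilent processed signals, median centring and the authors' deposited log2 ratios, Cyp3a11 on array 2 lay between -3.75 and -3.16 and Cyp3a16 between -3.84 and -3.33. The Cyp3a41 pair lay between -3.68 and -3.14 and Cyp3a25 between -1.24 and -0.76. On arrays 1, 3 and 4 the spread was wider, with Cyp3a11 between -1.61 and 1.17 and Cyp3a25 between -1.35 and 0.10. With median centring, array 3 rather than array 2 had the lowest ratio of Cyp3a25, at -1.35, of Cyp3a57, at -1.46, and of the dimmer Cyp3a59 probe, at -1.53.

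Among genes with a symbol, those whose 4 ratios lay closest to those of Cyp3a11 were other Cyp3a genes. Likeness was the root mean square difference of the ratios over the 4 arrays. It was 0.121 for Cyp3a16, 0.154 for Cyp3a41b and 0.51 for Cyp3a59. For Cyp3a16 the closest with a symbol were Cyp3a11, Cyp3a41b (0.167) and Cyp3a59 (0.455). The predicted transcript LOC673748 of the cluster, which has no symbol, lay nearer than Cyp3a59, at 0.399 from Cyp3a11 and 0.379 from Cyp3a16. Next after these was Hsd17b6 for Cyp3a11, a steroid dehydrogenase gene, at 1.13, with ratios of 0.69, -1.45, -0.21 and 0.09. These distances rest on 4 arrays, and that of Hsd17b6 comes mostly from array 2. How far Cyp3a transcripts bound the probes of other Cyp3a genes, and so added to the likeness, was not tested.

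Promoters are shown because most members of the family were low in the same mouse. They are 250 bases before the start of each gene from RefSeq, build GRCm38.p6, and 9 Cyp3a genes had one. The 4 shown lie on the minus strand of chromosome 5. Capitals mark AGGTCA, the core motif of nuclear receptors (on either strand), CAAAGTCCA, a motif of the kind bound by HNF4A, and CATATAA, a motif like the box that positions transcription starts. The motifs were searched on both strands and do not overlap in these sequences.
Cyp3a11: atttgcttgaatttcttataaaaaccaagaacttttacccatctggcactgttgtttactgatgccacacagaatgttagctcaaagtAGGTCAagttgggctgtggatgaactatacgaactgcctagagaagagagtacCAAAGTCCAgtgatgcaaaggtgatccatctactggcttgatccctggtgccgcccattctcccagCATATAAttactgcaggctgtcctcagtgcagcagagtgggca
Cyp3a41a: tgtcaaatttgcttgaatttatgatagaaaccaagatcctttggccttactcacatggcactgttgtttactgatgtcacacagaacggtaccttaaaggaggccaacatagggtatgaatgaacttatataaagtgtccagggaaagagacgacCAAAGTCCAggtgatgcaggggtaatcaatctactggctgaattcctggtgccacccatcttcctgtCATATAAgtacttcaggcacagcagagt
Cyp3a25: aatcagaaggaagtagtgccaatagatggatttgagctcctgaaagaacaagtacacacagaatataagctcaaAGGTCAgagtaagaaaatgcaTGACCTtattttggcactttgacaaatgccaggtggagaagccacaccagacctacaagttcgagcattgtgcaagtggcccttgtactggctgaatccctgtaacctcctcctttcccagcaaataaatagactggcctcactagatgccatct
Cyp3a13: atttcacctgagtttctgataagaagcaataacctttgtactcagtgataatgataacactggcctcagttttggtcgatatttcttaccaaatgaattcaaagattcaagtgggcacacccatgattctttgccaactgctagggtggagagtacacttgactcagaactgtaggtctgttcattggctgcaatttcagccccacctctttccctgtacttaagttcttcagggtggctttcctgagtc

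These are chr5:145879855-145880104 for Cyp3a11, chr5:145720137-145720386 for Cyp3a41a, chr5:146009619-146009868 for Cyp3a25 and chr5:137921620-137921869 for Cyp3a13. CAAAGTCCA begins 109 bases before the start in Cyp3a11, 99 in Cyp3a16 and 95 in Cyp3a41a and Cyp3a41b. It has no match in this window of Cyp3a44, Cyp3a25, Cyp3a57, Cyp3a59 or Cyp3a13. Over 27025 mouse promoters of the same length, 0.381% hold it. The Cyp3a genes that hold it have similar windows (99.6% identical for Cyp3a41a and Cyp3a41b), so their matches are not independent of each other. CATATAA is in the windows of Cyp3a11, Cyp3a16, Cyp3a41a, Cyp3a41b and Cyp3a44, and in 2.18% of all promoters. AGGTCA matches 1 time in Cyp3a11 and Cyp3a44, 2 times in Cyp3a25, Cyp3a57 and Cyp3a59 and 0 times in the others, against 13.8% of all promoters with a match. The windows of Cyp3a16 and Cyp3a41a were 91.3% identical, those of Cyp3a11 and Cyp3a16 76.6%, those of Cyp3a11 and Cyp3a25 54.3% and those of Cyp3a11 and Cyp3a13 57.6%. A match is a description of the letters, and binding was not measured.

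The regulators of Cyp3a genes had a median near 0 on array 2. Among 23 kept genes for nuclear receptors and factors that control Cyp3a genes, limma called 0 (4 had an unadjusted p under 0.05). Their median log2 ratio was 0.02 over the arrays and 0.04 on array 2, against -0.0014 and 0.01 for all genes kept. Nr1i2, which encodes PXR, had ratios of -0.24, 0.58, 0.63 and 0.20 (adjusted p = 0.375). Nr1i3, which encodes CAR, had ratios of 0.31, -0.22, 0.44 and -0.08 (adjusted p = 0.674). On array 2 Nr1i2 was above WT and Nr1i3 below it, and the genes of the list ran from -0.53 to 0.58. Hnf4a had ratios of -0.47, -0.34, 0.18 and 0.11 (adjusted p = 0.238). The smallest p in the list were those of Onecut1 (-0.27, adjusted p = 0.12), Ppara (-0.18, adjusted p = 0.131) and Cebpa (0.21, adjusted p = 0.211), which encode liver transcription factors.

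Most other target genes of PXR and CAR were not as low as -1 on array 2, but the share that was exceeded that over all genes. Of 34 kept targets outside the family, limma called 1 higher and 0 lower, or 2.94% against 1.38% of all genes. An unadjusted p under 0.05 was reached by 16 of them, against 20.5% of all genes. Their median log2 ratio was 0.19 over the arrays and 0.09 on array 2. Fmo5, a flavin monooxygenase gene, rose, with ratios of 0.73, 0.86, 1.07 and 0.51 (adjusted p = 0.0499). Cyp2b10, the classical CAR target, had ratios of 1.86, 0.46, 2.66 and 2.22 and missed the threshold (adjusted p = 0.0508). Its relative Cyp2b9 had ratios of 1.45, 0.36, 1.61 and 1.39 (adjusted p = 0.0636). These 2 genes were above WT on every array and least so on array 2. Cyp2b13, another Cyp2b gene of the list, was below WT on array 2, with ratios of 0.34, -0.12, 0.54 and 0.16 (adjusted p = 0.305). On array 2, 3 of the 34 targets were at -1 or less, a share of 8.82%, against 0.33% of all genes. These were the glutathione transferase genes Gstm1 (-1.27) and Gsta1 (-1.15) and the carboxylesterase gene Ces2a (-1.10), named after their values were seen.

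Genes of electron donors and haem supply had a median near 0 on array 2. Of 18 genes for P450 redox partners and haem metabolism, limma called 0 (3 had an unadjusted p under 0.05), and the median on that array was -0.0046. Por had ratios of -0.51, 0.45, 0.36 and -0.33 (adjusted p = 0.993). The smallest p were those of Cyb5a, which encodes cytochrome b5 (0.27, adjusted p = 0.0961), Alas1, the first enzyme of haem synthesis (-0.72, adjusted p = 0.106), and Hmox2 (0.16, adjusted p = 0.218).

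Sex-dependent liver genes were examined because Cyp3a41 and Cyp3a44 belong to the female pattern. Of 24 kept genes that predominate in females, limma called 0 higher and 1 lower, or 4.17% against 1.38% of all genes. An unadjusted p under 0.05 was reached by 14 of them, against 20.5% of all genes. The oxysterol hydroxylase gene Cyp39a1 fell, with ratios of -1.87, -1.94, -0.52 and -0.30 (adjusted p = 0.0299). Cyp2b10 and Cyp2b9, given above, also belong to this list and were next in order of p with Dntt (-0.48, adjusted p = 0.0587) between them. Of 30 kept genes that predominate in males, 2 rose and 0 fell (6.67%), and 12 had an unadjusted p under 0.05. The pheromone carrier gene Mup20 rose, with ratios of 2.53, 2.87, 0.29 and 1.04 (adjusted p = 0.0345), and the steroid dehydrogenase gene Hsd17b2 rose, with 0.35, 0.37, 1.20 and 0.88 (adjusted p = 0.0352). Susd4 was next (0.56, adjusted p = 0.0734). The ratios of Cyp39a1, Mup20 and Hsd17b2 differed between arrays 1 and 2 and arrays 3 and 4, and the dye term takes up that difference. The medians on array 2 were 0.17 for the female list and -0.13 for the male list, but single genes lay far from them. On that array 4 male-list genes were at 1 or more and 4 at -1 or less (13.3% each). In the female list 1 was at 1 or more (4.17%) and 2 at -1 or less (8.33%). Over all genes the shares were 0.777% and 0.33%. Of 16 growth hormone signalling genes, which set these sex patterns, limma called 0 (3 had an unadjusted p under 0.05), with Onecut1 first, then Socs2 (-0.35, adjusted p = 0.143) and Hnf4a (-0.13, adjusted p = 0.238). Their median on array 2 was 0.09, with 1 gene (6.25%) at 1 or more and 0 at -1 or less. That gene was Bcl6, also in the male list, with ratios of -0.55, 2.17, -0.95 and 2.12 (adjusted p = 0.619).

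Position in the liver lobule was covered by 2 lists, as Cyp3a11 is most abundant around the central vein. Of 21 pericentral genes limma called 0 (8 had an unadjusted p under 0.05), and their median on array 2 was 0.13. The smallest p were those of Cyp2c37 (0.25, adjusted p = 0.0971), Rhbg (0.76, adjusted p = 0.0992) and Tbx3 (0.30, adjusted p = 0.101). Of 20 periportal genes, Hal, which degrades histidine, rose, with ratios of 0.81, 0.96, 0.66 and 0.45 (adjusted p = 0.0345), and 0 fell. Alb (-0.36, adjusted p = 0.0853) and Hsd17b13 (-0.20, adjusted p = 0.142) were next. The share called was 5%, against 1.38% of all genes, and 7 periportal genes had an unadjusted p under 0.05.

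Acute phase genes and macrophage markers had medians above 0 on array 2, and their part in the Cyp3a values was not tested. Of 26 genes of plasma proteins and metal carriers that the liver makes in inflammation, a list added after the values had been seen, limma called 0 (4 had an unadjusted p under 0.05). The mean ratio was above 0 for 13 of these genes and below 0 for 13. Their median log2 ratios were -0.67, 0.77, 0.29 and -0.09 on arrays 1 to 4, and 10 of 26 (38.5%) were at 1 or more on array 2, against 0.777% of all genes. Saa1, a serum amyloid A gene, had ratios of -1.31, 3.96, 1.94 and -0.01. The metallothionein gene Mt2 had ratios of -2.86, 3.90, 3.21 and -1.03. Saa1 and Mt2 were picked from the list after their values were seen, and array 2 had the highest ratio for both and array 1 the lowest. The Cyp3a11 ratios on arrays 1 to 4 were 0.56, -3.70, -0.37 and 0.18. The mean log2 level of the list was 12.80, 13.86, 13.40 and 12.86 in KO1 to KO4, against 13.59, 12.61, 12.82 and 12.98 in WT1 to WT4, so WT1 was also high.

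The 18 Kupffer cell and macrophage markers had medians of -0.23, 0.83, 0.43 and 0.50 on arrays 1 to 4, and 17 of 18 had a mean ratio above 0. Limma called 0 of them (9 had an unadjusted p under 0.05, against 20.5% of all genes). Their mean log2 level ranged from 10.42 to 10.93 in IlrunKO livers and from 10.09 to 10.60 in WT livers, with KO2 the highest. Stellate cell markers ranged from 8.94 to 9.25 in IlrunKO livers and 9.19 to 9.53 in WT livers (17 kept, all with a mean ratio below 0, 0 called, 13 with an unadjusted p under 0.05). Endothelial markers ranged from 10.20 to 10.31 in IlrunKO livers and 10.32 to 10.40 in WT livers (16 kept, 15 with a mean ratio below 0, 0 called, 4 with an unadjusted p under 0.05).

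Cholangiocyte markers ranged from 6.99 to 7.24 in IlrunKO livers and 6.97 to 7.14 in WT livers (7 kept, 0 called, 1 with an unadjusted p under 0.05). Of 9 adipocyte markers, 2 rose in limma, Cfd and Adrb3 (22.2% of the list, against 1.38% of all genes), and 8 had an unadjusted p under 0.05. The mean level ranged from 9.98 to 10.25 in IlrunKO livers and 9.02 to 9.40 in WT livers, with KO2 the lowest IlrunKO value. Of 10 lymphocyte markers, Nkg7 fell (-0.76, adjusted p = 0.0301), and of 7 intestinal and pancreatic markers, Amy2a5 fell (-0.56, adjusted p = 0.0433). The shares called were 10% and 14.3% of these lists, against 1.38% of all genes, and 5 and 3 markers had an unadjusted p under 0.05.

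**Figure D4:**
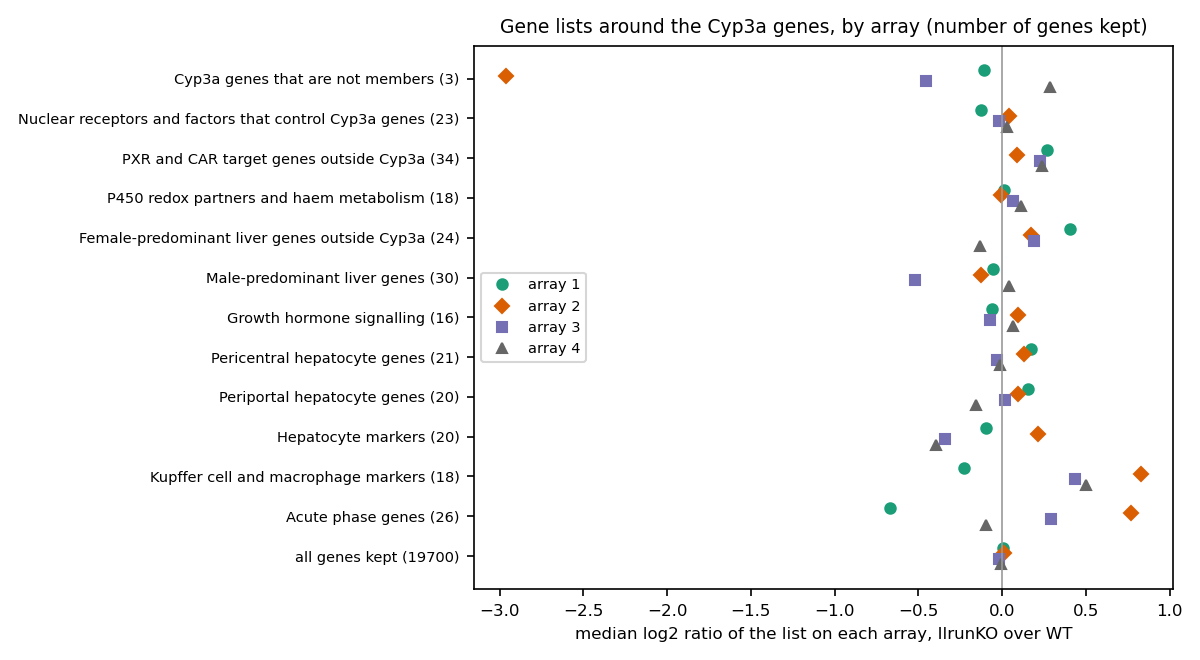
Median log2 ratio of IlrunKO over WT on each array for 12 gene lists and for all genes kept, 1 symbol per array, with the number of genes kept in brackets. On array 2 the 3 other Cyp3a genes have a median of -2.96, while the macrophage and acute phase lists have medians of 0.83 and 0.77. The other lists lie between -0.13 and 0.21 on array 2.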

How the data were processed

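Livers of 4 IlrunKO and 4 WT mice were measured on 4 two-colour arrays (44397 spots). The authors deposited Agilent Feature Extraction (version 10.10.1.1) output with raw and processed intensity of each dye and, per the file headers, the log10 of Cy5 over Cy3. A deposited table holds log2 ratios, whose scale and direction are not stated. Against the scanner ratios over spots above background it correlated at 0.956, 0.943, -0.943 and -0.952 on arrays 1 to 4, so it already runs as IlrunKO over WT, with column medians from -0.04 to 0.04. The submitters' processing notes name limma with no version, and its settings there are unknown.

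Raw intensity was background-corrected with normexp (offset 50) and normalised by loess within each array in limma 3.58.1 (R 4.3.3, data.table version 1.17.8), with 1377 control spots at weight 0 and outlier spots (224 to 381 per array) left out. No spot was saturated. Spots of a probe were averaged and the brightest probe stood for a gene. Genes well above background in at least 3 of 4 channels of a genotype were fitted with lmFit and eBayes, with genotype and dye terms (2 residual and 2.84 prior degrees of freedom), with Benjamini-Hochberg adjustment across 19700 genes or 24404 probes. Tests are two-sided, and 4 arrays bound the precision. Because of the dye term, the p-values measure only the spread within arrays 1 and 2 and within arrays 3 and 4. Dye bias and a difference between those pairs of mice cannot be told apart. Levels were taken per channel after loess and Aquantile. Each array pairs 1 IlrunKO and 1 WT sample, and the ratio keeps that pairing.

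Of the probes, 26055 were named by RefSeq accession, 4125 by symbol or synonym and 9249 kept the file's name. Genes named in the text were every Cyp3a gene, Ilrun, Nr1i2, Nr1i3, Por, the called members or the 3 smallest p of each pathway list, and the 3 genes with a symbol closest to a member with a mean log2 ratio of at least 0.5 in size. Hsd17b6, Saa1, Mt2, Gstm1, Gsta1, Ces2a, Cyp2b13, Bcl6, LOC673748 and the unnamed probes were chosen after their values were seen. The members and lists were chosen with earlier results of these data known. Cyp3a41a had no probe of its own and Cyp3a44 no signal, so neither was tested. The fit was tested on simulated data. Alternatives covered background correction, normalisation, filter, probe per gene, variance model, weights, dye and pairing terms, the deposited values, the threshold and each array left out. Figures were drawn with matplotlib 3.10.9.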

Additional observations from a re-analysis of the deposited data

Results flagged for a closer look

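In 33 groups of 4 Cyp3a values (ratios, IlrunKO levels and WT levels of 11 probes), 4 held a value far from the others by Dixon's test, which chance alone flags in about 1 of 20 groups. Over all genes kept, 4.20% were flagged on their log2 ratios. The Cyp3a16 ratio on array 2 (-3.74) and the Cyp3a16 level in KO2 (10.93) stood apart. The Cyp3a11 ratio on array 2 fell just short of the critical value. WT1 stood apart at the dimmer Cyp3a13 probe, with a log2 level of 10.502 against 9.93 to 9.94 in the other WT livers. WT1 was also lowest for Cyp3a57, at 12.48 against 13.04 to 13.08. The part of the WT1 values in the ratios of array 1 was not tested.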

How the results depend on the processing

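Of 4 member genes, 0 were called in any alternative except without replicate 1, where limma called 3 genes and 4 probes, so these counts ranged from 0 to 3 and from 0 to 4 when arrays were left out. There array 2 is alone in its dye orientation, so its departure adds nothing to the residual spread. Leaving out 1 array at a time, the fitted log2 ratio of Cyp3a11 ranged from -1.90 to 0.23 and that of Cyp3a16 from -1.90 to 0.14. Cyp3a13 ranged from -0.09 to 0.51, the Cyp3a41 pair from -1.77 to 0.17 and Cyp3a25 from -0.66 to -0.23. With the dye term, the array left alone in its dye orientation weighs as much as the remaining arrays together. These fitted values therefore differ from the plain means without array 2 given above. Without replicate 1, Cyp3a11, Cyp3a16 and the Cyp3a41 pair had an adjusted p of 0.0267 and Cyp3a13 of 0.0438. Without replicate 2, the signs turned for Cyp3a11 (0.2345), Cyp3a16 (0.1421), the Cyp3a41 pair (0.1747) and Cyp3a13 (-0.0941), and none of these 4 was called. Cyp3a25 kept its sign and was never called, with adjusted p from 0.0502 to 0.506 over 18 alternatives. Cyp3a44 gave no value to test in any alternative.

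Genes called over all genes numbered 271. They numbered 445 without background correction, 64 with processed signals, 1 with median centring, 409 with a trended and robust variance, 2490 with separate channels, 597 on 8 channels with no replicate block, 452 with the deposited values and 1132 at a threshold of 0.1, and from 1 to 476 with an array left out. The cause was not tested. The ratio pairs the samples of an array, and without that block no Cyp3a member was called. The Cyp3a11 value of -0.83 could not change there, since each array holds 1 sample of each genotype and the means are the same. Over all results and alternatives, 122 values kept their direction and call or, for counts, stayed within 1.5 times, while 13 counts moved further, 4 values became called and 4 changed sign. Median centring moved the median of all genes by -0.05. With 4 arrays the interval of Cyp3a11 spans -2.63 to 0.97, so a smaller difference could not be seen.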

Other observations

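Ratios of Cyp3a25 were closest to those of the unnamed probe 547 bases away, at a root mean square difference of 0.103, and, among genes with a symbol, to those of Cyp3a57, at 0.156 over the 4 arrays, and then to those of the glutathione transferase genes Gstm1 (0.158) and Gstm4 (0.165). Gstm1 had ratios of -0.40, -1.27, -0.60 and 0.05. Ratios of Cyp3a13 were closest to those of Clec4f (0.0989), Slc37a1 (0.102) and Lyz2 (0.102). Clec4f, a receptor gene of Kupffer cells, had ratios of -0.26, 0.80, 0.33 and 0.26, and Lyz2, a lysozyme gene of macrophages, -0.38, 0.72, 0.35 and 0.08. The carboxylesterase gene Ces2a, a PXR target, was low on array 2 alone, at -1.10, against 0.03, 0.02 and 0.07 on arrays 1, 3 and 4. These genes were chosen after their values were seen, and no test was made of their likeness.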
